A study of Mus musculus with 8 samples.

Results

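Asparagine synthetase, the enzymes that make proline, the transaminases of aspartate, the transsulfuration enzymes and mitochondrial phosphoenolpyruvate carboxykinase were followed in single-nucleus RNA-seq data of whole mouse hearts. The 8 genes Asns, Got1, Got2, Aldh18a1, Pycr1, Cth, Cbs and Pck2 were chosen by name, out of 26692 genes that were found in at least 10 nuclei. They and the gene lists used below were chosen with earlier results of these data known, so their counts set against all genes are descriptions. Each was read as CPM (the UMIs of the gene, with every sum brought to the same total) per mouse, in nuclei of clusters named by 6 markers per type. Among these markers were Ryr2 and Ttn for cardiomyocytes, Pdgfra and Bicc1 for fibroblasts, Ptprb and Flt1 for endothelial cells and F13a1 and Mrc1 for macrophages. The hearts came from 4 WT male mice (mice 4686, 4909, 5355 and 5356) and 4 Taz-KO male mice (mice 4685, 4910, 5300 and 5301), all 9 weeks old, with 1 library per mouse. Taz-KO mice carry a knockout of Tafazzin, the cardiolipin-remodeling acyltransferase of mitochondria that is affected in Barth syndrome, and the labels name no treatment. The strain and the way the allele was made are not given in the sources used here.

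Asparagine is made from aspartate by Asns, with glutamine as the donor of nitrogen, and aspartate is made from oxaloacetate and glutamate by the transaminases Got1 in the cytosol and Got2 in mitochondria. Proline is made from glutamate inside mitochondria, where Aldh18a1 forms the semialdehyde that closes into a ring and Pycr1 reduces that ring to proline. Transsulfuration carries the sulfur of homocysteine to cysteine through cystathionine, made by Cbs and cleaved by Cth, and Pck2 turns mitochondrial oxaloacetate into phosphoenolpyruvate. Several of these genes are textbook targets of the transcription factor ATF4 in the amino acid response, in which a composite element that binds ATF4 together with a C/EBP protein lies near the start of the gene.

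On GRCm38, Asns (ENSMUSG00000029752) lies at chr6:7675169-7693254 on the minus strand, Got1 (ENSMUSG00000025190) at chr19:43499752-43524605 on the minus strand and Got2 (ENSMUSG00000031672) at chr8:95864134-95888547 on the minus strand. Aldh18a1 (ENSMUSG00000025007) lies at chr19:40550257-40588463 and Pycr1 (ENSMUSG00000025140) at chr11:120635712-120643769, both on the minus strand. Cth (ENSMUSG00000028179) lies at chr3:157894248-157925077 and Cbs (ENSMUSG00000024039) at chr17:31608894-31637238, both on the minus strand, and Pck2 (ENSMUSG00000040618) at chr14:55540266-55551242 on the plus strand. No gene of the files overlaps a member on its own strand, and Gm10876 overlaps Pck2 on the opposite strand.

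RefSeq promoters (GRCm38.p6) were found for 7 of the 8 members, Cth being the member without an entry. The 250 bases before the annotated start were searched on both strands for TGATGNAA, the core of the ATF4 and C/EBP composite element. The motif was present in 4 of the 7, Asns, Pycr1, Got1 and Pck2, and in 3.91% of all 27025 genes whose promoters were searched in the same way, or 3.45% of the 32851 promoters. It was not found in these bases of Aldh18a1, Got2 or Cbs. The stretches shown place the motif beside the starts of 3 genes that rose in Taz-KO cardiomyocytes and of Got1, which did not pass the test. They are written 5′ to 3′ on the strand of the gene, with the motif in capitals, which reads on the opposite strand in Got1 and Pck2.
Asns, chr6:7693214-7693243, minus strand: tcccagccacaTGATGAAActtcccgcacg
Pycr1, chr11:120643808-120643887, minus strand: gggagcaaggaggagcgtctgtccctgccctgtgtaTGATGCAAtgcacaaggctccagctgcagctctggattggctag
Got1, chr19:43524664-43524743, minus strand: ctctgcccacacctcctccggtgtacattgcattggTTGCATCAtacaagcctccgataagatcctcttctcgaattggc
Pck2, chr14:55540127-55540206, plus strand: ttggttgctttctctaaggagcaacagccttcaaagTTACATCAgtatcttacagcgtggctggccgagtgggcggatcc
The first base of the motif lies 23 bases before the RefSeq start in Asns, 103 in Pycr1, 102 in Got1 and 103 in Pck2. The GENCODE annotation starts Asns 45 bases further upstream than RefSeq, so the Asns motif lies before the start in RefSeq and inside the gene in GENCODE. A match is a run of letters and was not tested as a binding site.

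The libraries held 169193 barcodes, and 151264 were kept as nuclei, among them 29606 cardiomyocytes, 37159 fibroblasts, 18946 endothelial cells and 14636 macrophages. Except for mice 4685 and 5301, each library held more barcodes than the nuclei the study's methods say were used for it, and more were kept here than the study analysed. Nuclei therefore means barcodes that passed the filter, not all of which can be single nuclei. Total UMIs ranged from 20025456 in Taz-KO mouse 5301 to 348080773 in WT mouse 4909, and cardiomyocytes from 223 in Taz-KO mouse 4685 to 7340 in Taz-KO mouse 4910. Mouse 5301 stood apart with 1.57% mitochondrial UMIs, against 7.01% to 23.7% in the other libraries, and mice 4685 and 5301 gave 3492 and 5571 barcodes against 21190 or more in each of the others. No pair of libraries shared more than 1.04% of the barcodes of the smaller library. The cardiomyocyte markers summed to 39369 to 67104 CPM in cardiomyocytes and to 3138 to 14063 CPM in the other 3 cell types, and no marker of any list was at 0 in a tested cell type. The 6 fibroblast markers summed to 870 to 3450 CPM in cardiomyocytes, 612 to 5929 CPM in endothelial cells and 685 to 7095 CPM in macrophages. In fibroblasts they summed to 8298 to 12058 CPM. The markers of endothelial cells and macrophages summed to 3504 to 7715 and 3989 to 9200 CPM in their own type. In WT mice these sums lay below those of the cardiomyocyte markers there (9033 to 14063 and 10465 to 12361 CPM). In cardiomyocytes the 6 smooth muscle markers summed to 16.3 to 60.2 CPM in WT and 54.7 to 229.6 CPM in Taz-KO mice. The 6 markers of B lymphocytes and the 6 of T lymphocytes did not overlap between genotypes, at 19.6 to 28.1 and 8.39 to 13.1 CPM in WT and at 10.6 to 15.5 and 3.36 to 8.28 CPM in Taz-KO mice, all unscaled. B lymphocyte markers did not overlap in fibroblasts either (41.4 to 58.5 CPM in WT and 16.4 to 38.4 CPM in Taz-KO mice) or in endothelial cells (46.7 to 79.8 and 21.6 to 42.3 CPM), nor did adipocyte markers among macrophages (93.3 to 115.9 and 61.8 to 91.1 CPM). The part of these cells in the members' values was not tested. The UMIs of all nuclei of a cell type in a mouse were added up, and these sums were compared by the quasi-likelihood test of edgeR, p-values being adjusted by Benjamini-Hochberg over all genes of a cell type. A gene is called higher or lower at an adjusted p under 0.05, and CPM are TMM-scaled unless another scale is named. Taz itself was at 48.0 to 57.3 CPM in WT and 23.5 to 40.7 CPM in Taz-KO cardiomyocytes (log2 fold change -0.65 ± 0.18 (SE), adjusted p = 0.0306), and which bases of it the allele removes is not given in the sources used here, so the remaining UMIs are no check of the labels.

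In cardiomyocytes, 5 of the 8 enzymes were higher in Taz-KO mice and none was lower. Asns rose most, 55.8-fold, followed by Aldh18a1 at 9.32-fold, Pycr1 at 7.72-fold, Cth at 4.34-fold and Pck2 at 2.64-fold, while Got1, Got2 and Cbs did not pass the test. The size moved in some settings, to a log2 fold change of 8.31 for Asns and 4.12 for Aldh18a1 when the profile of the lowest-UMI barcodes was subtracted as a 0.2 share, and to 7.95 for Asns in nuclei with at most 5% mitochondrial UMIs. The subtraction allowed no negative counts, so the Asns UMIs of a WT mouse, few to begin with, could be removed in full. Of all 18435 genes tested, 8.62% were called higher and 6.53% lower, 15.2% in either direction. In 6 of the 8 enzymes every Taz-KO mouse lay above every WT mouse, which held for 10.9% of all genes. The median log2 fold change of the 8 enzymes was 1.76, against -0.01 over all genes tested. All 8 passed the filter on low counts in cardiomyocytes.

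**Figure D1:**
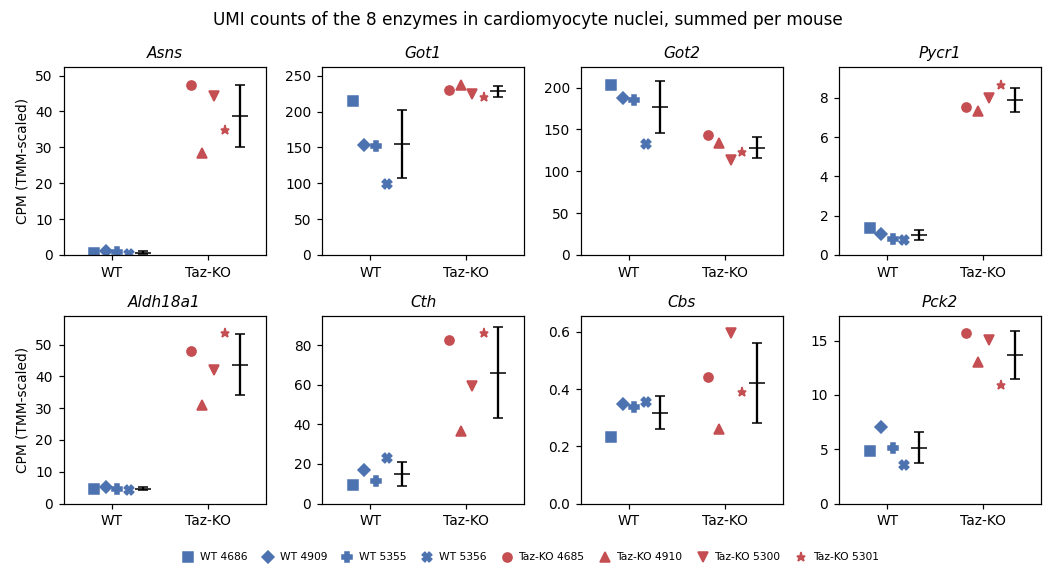
TMM-scaled CPM (y axis, linear from 0, a scale per panel) of the 8 enzymes in cardiomyocyte nuclei summed per mouse, 1 symbol per mouse, with the mean and SD of the 4 mice of a genotype in black. The Taz-KO mice lie above the WT mice without overlap in Asns (28.4 to 47.5 against at most 0.996 CPM), Aldh18a1, Pycr1, Cth, Pck2 and Got1, and overlap them in Got2 and Cbs.

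Asns, the source of asparagine, was at 0.547, 0.996, 0.962 and 0.191 CPM in cardiomyocytes of WT mice 4686, 4909, 5355 and 5356. It was at 47.5, 28.4, 44.2 and 34.8 CPM in those of Taz-KO mice 4685, 4910, 5300 and 5301. The genotypes did not overlap, and the lowest Taz-KO mouse lay far above the highest WT mouse. The fitted log2 fold change was 5.80 ± 0.42 (SE; adjusted p = 1.76e-05, edgeR), on 139 UMIs in WT and 5510 in Taz-KO cardiomyocytes.

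Got1, the cytosolic aspartate transaminase, was at 214, 153, 152 and 99.4 CPM in WT cardiomyocytes and at 230, 238, 225 and 220 CPM in Taz-KO cardiomyocytes, mice in the same order. The Taz-KO mice were close to each other and lay just above WT mouse 4686, while the WT mice were spread widely. The difference did not pass the test (log2 fold change 0.56 ± 0.22 (SE), adjusted p = 0.108, edgeR) unless WT mouse 4686 was left out (0.75, adjusted p = 0.0393). Got2, the mitochondrial transaminase, was at 204, 188, 185 and 132 CPM in WT and 143, 134, 114 and 123 CPM in Taz-KO cardiomyocytes. All Taz-KO values were below those of 3 of the WT mice and overlapped only with that of mouse 5356. The log2 fold change of Got2 was -0.47 ± 0.18 (SE; adjusted p = 0.101, edgeR), and it passed the test without WT mouse 5356 (-0.60, adjusted p = 0.0319). The cytosolic and the mitochondrial transaminase thus had fitted differences of opposite sign, and neither was called with all mice.

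Aldh18a1, which opens the proline pathway, was at 4.61, 5.30, 4.47 and 4.27 CPM in WT and at 48.2, 31.0, 42.1 and 53.6 CPM in Taz-KO cardiomyocytes. The WT mice were nearly equal, and even the lowest Taz-KO mouse, 4910, was several times higher. The log2 fold change was 3.22 ± 0.20 (SE; adjusted p = 3.24e-06, edgeR). Pycr1, which closes the pathway, was at 1.37, 1.08, 0.832 and 0.766 CPM in WT and at 7.51, 7.34, 8.02 and 8.68 CPM in Taz-KO cardiomyocytes. The genotypes did not overlap, and the log2 fold change was 2.95 ± 0.25 (SE; adjusted p = 2.98e-05, edgeR).

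Cth, the enzyme that releases cysteine from cystathionine, was at 9.41, 17.0, 11.3 and 22.8 CPM in WT and at 82.4, 36.5, 59.2 and 86.0 CPM in Taz-KO cardiomyocytes. Both genotypes were spread, with mouse 4910 the lowest of the Taz-KO mice and mouse 5356 the highest of the WT mice, and they did not overlap. The log2 fold change was 2.12 ± 0.34 (SE; adjusted p = 0.00254, edgeR). Cbs, which makes cystathionine, was barely detected. It was at 0.231 to 0.355 CPM in WT and 0.260 to 0.595 CPM in Taz-KO cardiomyocytes, on 61 and 60 UMIs in all, and the difference did not pass the test (log2 fold change 0.37 ± 0.39 (SE), adjusted p = 0.651, edgeR).

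Pck2, the mitochondrial carboxykinase, was at 4.84, 7.09, 5.12 and 3.55 CPM in WT and at 15.7, 13, 15.1 and 10.9 CPM in Taz-KO cardiomyocytes. Every Taz-KO mouse lay above every WT mouse, with a narrower gap than in Asns or Aldh18a1. The log2 fold change was 1.4 ± 0.23 (SE; adjusted p = 0.00249, edgeR). Pck2 was the member whose call in cardiomyocytes was lost when the profile of the lowest-UMI barcodes of each library was subtracted as a 0.2 share (log2 fold change 3.02, adjusted p = 0.130), and Asns, Aldh18a1, Pycr1 and Cth kept theirs. Those barcodes held Pck2 at 18.9 to 25.9 CPM (unscaled) in WT and 30.2 to 55.7 CPM in Taz-KO mice. With no negative counts allowed, the subtraction could remove much of the Pck2 of WT cardiomyocytes.

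The levels were also read as shares of nuclei with a UMI, which at a fixed depth follow the CPM and add no independent support. After each cardiomyocyte was thinned to 1000 UMIs, which left out 134 nuclei of mouse 5301, Asns had a UMI in 2.57% to 5.57% of the nuclei of each Taz-KO mouse and in no more than 0.103% of those of a WT mouse. Aldh18a1 had a UMI in 4.66% ± 1.38 (SD, n = 4) of Taz-KO and 0.504% ± 0.187 of WT nuclei, and Cth in 4.53% ± 1.12 and 1.30% ± 0.524. Pycr1 and Pck2 rose from 0.104% ± 0.0441 to 0.606% ± 0.186 and from 0.650% ± 0.165 to 2.05% ± 1.37. For each of these 5 genes the exact two-sided permutation test over mice gave p = 0.0286, the smallest that 4 against 4 mice allow, with 8 members tested and no adjustment made over them. Got1 was found in 22.5% ± 4.02 of Taz-KO and 14.6% ± 4.36 of WT nuclei (exact permutation p = 0.0571), and Got2 in 12.9% ± 1.86 and 16.4% ± 4.56 (exact permutation p = 0.200). Without thinning, Asns had a UMI in 32.2% of Taz-KO and 0.796% of WT nuclei, as means of the mice, at medians of 5482 to 18518 UMIs per nucleus. No cell type was taken as lacking these genes as a measure of background, and the 10% of barcodes of each library with the fewest UMIs held Asns at 36.9 to 75.2 CPM (unscaled) in Taz-KO mice. Thinned in the same way, the other cell types also gave higher shares for Asns in Taz-KO mice, with 2.90% ± 1.76 of Taz-KO and 0.225% ± 0.0797 of WT nuclei in fibroblasts, 3.73% ± 2.22 and 0.388% ± 0.0693 in endothelial cells and 3.37% ± 1.99 and 0.225% ± 0.147 among macrophages, beside 3.73% ± 1.30 and 0.0481% ± 0.0445 in cardiomyocytes. The genotypes did not overlap in any of the 4 cell types (exact permutation p = 0.0286 in each). Outside cardiomyocytes, the Asns values of Taz-KO mouse 5301 rest on few UMIs, given below. For thinned shares, the part of all genes without overlap was not computed. On the sums, non-overlap upward held for 10.9% of all genes in cardiomyocytes. It held for 3.52%, 2.80% and 2.26% in fibroblasts, endothelial cells and macrophages.

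**Figure D2:**
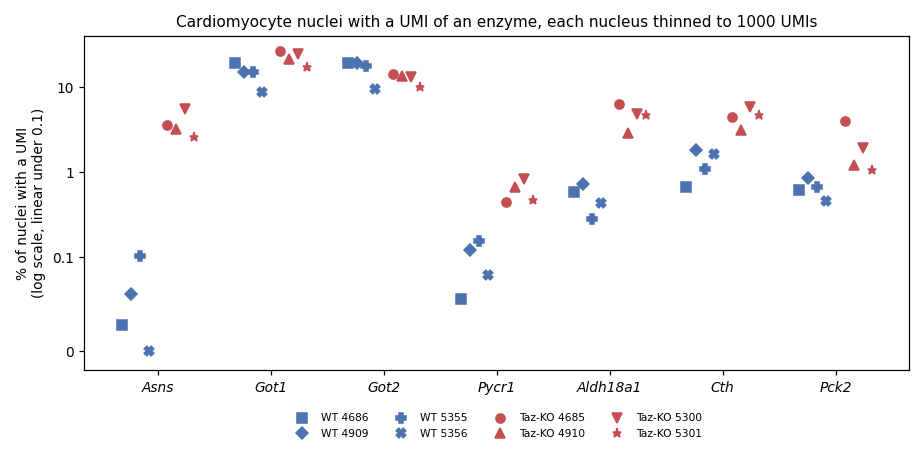
Share of cardiomyocyte nuclei with at least 1 UMI of an enzyme (y axis, percent, log scale that turns linear under 0.1) after each nucleus was thinned to 1000 UMIs, 1 symbol per mouse, Cbs left out for its few UMIs. Taz-KO mice lie above WT mice in Asns, Pycr1, Aldh18a1, Cth and Pck2, and the genotypes overlap in Got1 and Got2.

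The 29606 cardiomyocytes fell into 6 clusters, and in each of them the mean Asns level was higher in Taz-KO than in WT mice. The largest cluster, of 17278 nuclei, had 44.4 ± 15.7 CPM (SD, n = 4, unscaled) in Taz-KO and 0.615 ± 0.440 CPM in WT mice. A cluster of 4274 nuclei led by Fgf12, Kcnh7 and Tmem163 had 56.5 ± 28.2 CPM in Taz-KO and 2.20 ± 0.490 CPM in WT mice. In a cluster of 3 Taz-KO mice, mouse 5301 had no Asns UMI in its 10 nuclei, against 21.8 and 51.1 CPM in mice 4910 and 5300 and at most 1.71 CPM in WT mice. The genotypes overlapped in 4 of the 6 clusters for Pck2 and in 2 for Pycr1. Clusters with fewer than 10 nuclei of a mouse were read without that mouse, and the smallest held 372 Taz-KO nuclei of 2 mice and 62 WT nuclei of 3.

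In WT mice the members had different orders over the cell types, read as CPM scaled over the 4 cell types together and compared between neighbours in the order with the mouse as a block (edgeR, adjusted over 17953 genes). Cth stood out for cardiomyocytes, with 18.1 ± 7.61 CPM (SD, n = 4) against 2.43 ± 0.958 in endothelial cells (adjusted p = 1.18e-09), 1.93 in macrophages and 1.62 in fibroblasts, neither of the last steps passing the test (adjusted p = 0.310 and 0.571). Between cardiomyocytes and endothelial cells, 32.4% of all genes were called higher in cardiomyocytes and 43.7% in endothelial cells. Got1 and Got2 were also highest in cardiomyocytes, with 183 ± 52.5 and 210 ± 33.2 CPM against 143 and 170 CPM in endothelial cells (adjusted p = 0.0289 and 0.0310), and for both genes the steps from endothelial cells to fibroblasts and from fibroblasts to macrophages did not pass (adjusted p from 0.294 to 0.991).

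The remaining members were lowest or near the lowest in WT cardiomyocytes. Pck2 was at 26.6 ± 2.17 CPM in fibroblasts and 24.9 ± 0.503 CPM in endothelial cells, not separated by the test (adjusted p = 0.567), then at 19.3 CPM in macrophages (adjusted p = 0.0306 against endothelial cells) and 6.10 CPM in cardiomyocytes (adjusted p = 4.99e-08 against macrophages). Aldh18a1 was highest in fibroblasts at 23.0 ± 2.27 CPM, followed by macrophages at 9.29 CPM (adjusted p = 8.86e-07), endothelial cells at 8.61 CPM (adjusted p = 0.563 against macrophages) and cardiomyocytes at 5.53 CPM (adjusted p = 0.000493 against endothelial cells). Asns was highest in endothelial cells at 3.98 CPM, with 2.06 CPM in fibroblasts (adjusted p = 0.00622), 1.37 CPM in macrophages and 0.796 CPM in cardiomyocytes, neither of the last steps passing the test (adjusted p = 0.180 and 0.0518). Pycr1 was highest in fibroblasts at 3.48 CPM, against 1.15 to 1.5 CPM in the other 3 types, and Cbs was at 0.378 to 1.61 CPM with no step past the test. Such calls between cell types were common, at 23.9% of all genes for endothelial cells over fibroblasts, 27.9% for fibroblasts over macrophages, 29% for endothelial cells over macrophages and 40.2% for macrophages over cardiomyocytes.

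Outside cardiomyocytes, Asns was the member called in each of the other 3 cell types, and no member was called lower. In fibroblasts 1 of the 8 enzymes was called higher, against 0.282% of 17720 genes. In endothelial cells and in macrophages it was 1 of the 7 that passed the filter on low counts, Cbs being the gene not tested, against 0.312% of 16045 and 0.305% of 15430 genes. Called lower were 0.0847%, 0.112% and 0.0907% of all genes. The median log2 fold change of the members tested was 0.37 in fibroblasts, against -0.00021 over all genes. It was 1.26 against 0.0073 in endothelial cells and 1.14 against 0.020 in macrophages.

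In fibroblasts Asns was at 1.91, 2.48, 2.87 and 1.74 CPM in WT and at 19.1, 42.7, 37.6 and 6.18 CPM in Taz-KO mice, listed in the order used above. Mouse 5301 was the lowest of the Taz-KO mice and still above each WT mouse. The log2 fold change was 3.62 ± 0.50 (SE; adjusted p = 0.0261, edgeR). In endothelial cells Asns was at 3.54, 3.33, 5.25 and 4.64 CPM in WT and 33.5, 49.7, 49.9 and 6.48 CPM in Taz-KO mice (log2 fold change 3.17 ± 0.45 (SE), adjusted p = 0.0210). In macrophages it was at 1.29, 2.31, 1.69 and 1.1 CPM in WT and 29.98, 45.6, 42.4 and 4.38 CPM in Taz-KO mice (4.32 ± 0.56 (SE), adjusted p = 0.0118). In mouse 5301, the lowest of the Taz-KO mice in all 3 cell types, the values rest on 13, 6 and 5 UMIs, and they contrast with 34.8 CPM in the cardiomyocytes of the same mouse.

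Cardiomyocyte markers were detected in all these sums. Relative to cardiomyocytes their level was 5.50% to 22.7% in fibroblasts, 7.51% to 27.6% in endothelial cells and 10.7% to 26.4% in the macrophages, and mouse 5301 had the lowest share in each. In the 10% of barcodes of a library that held the fewest UMIs, Asns was at 2.63 to 4.71 CPM (unscaled) in WT and 36.9 to 75.2 CPM in Taz-KO mice, the lowest in mouse 5301. In mouse 5301 these barcodes held at most 616 UMIs and none was counted as a nucleus. In the lowest-UMI barcodes 5 members, those called in cardiomyocytes, were higher in every Taz-KO than in every WT mouse, which held for 3.73% of all genes. Such barcodes that were kept as nuclei can also be part of the sums, so this is no separate support. The part of cardiomyocyte RNA in the Asns values of the 3 cell types was not tested. The calls of Asns in the 3 cell types were lost when a 0.2 share of the lowest-UMI profile was subtracted (log2 fold changes 3.45, 2.91 and 4.60, adjusted p = 0.465, 0.324 and 0.157). The subtraction allowed no negative counts, and in mouse 5301 the share subtracted was larger than its few Asns UMIs in each of the 3 types. This mouse was thus left without Asns UMIs there. The calls were also lost in fibroblasts when any mouse other than 5301 was left out (adjusted p up to 0.129), in endothelial cells without 4685, 4686, 4909, 4910, 5300 or 5355 (up to 0.133), and in macrophages without 4686, 4909, 4910, 5300 or 5355 (up to 0.0747). Without 5301 the adjusted p was 0.000324, 9.94e-05 and 1.25e-05. Over the fits without 1 mouse the log2 fold change stayed at 3.29 to 3.91 for fibroblasts, 2.95 to 3.44 for endothelial cells and 4.05 to 4.63 for macrophages.

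Cth was higher without overlap in all 3 cell types, but was not called on the sums. It was at 1.03 to 2.90 CPM in WT and 3.80 to 11.7 CPM in Taz-KO fibroblasts (log2 fold change 2.01, adjusted p = 0.117), at 1.49 to 3.87 and 5.4 to 16.0 CPM in endothelial cells (1.97, adjusted p = 0.0690) and at 1.18 to 3.08 and 6.13 to 14.0 CPM in macrophages (2.06, adjusted p = 0.0569). Its fold changes in the other cell types were close to that in cardiomyocytes. In WT mice its level was higher in cardiomyocytes than in these types. In cardiomyocytes Cth was at 36.5 to 86.0 CPM in Taz-KO mice. Cardiomyocyte markers in the 3 types reached 22.7%, 27.6% and 26.4% of their cardiomyocyte level. The part of cardiomyocyte RNA in the Cth values of these types was not tested. Each Taz-KO range starts with mouse 5301, where 3 counts correspond to 1.41, 3.24 and 2.61 CPM (unscaled). In thinned nuclei the share with a Cth UMI was 0.640% ± 0.367 in Taz-KO and 0.176% ± 0.0780 in WT fibroblasts, 1.23% ± 0.911 and 0.337% ± 0.0987 in endothelial cells and 1.12% ± 0.336 and 0.314% ± 0.123 among macrophages, without overlap (exact permutation p = 0.0286 in each). Thinned to 2000 UMIs, the Cth shares overlapped in fibroblasts (exact permutation p = 0.0571) and endothelial cells (p = 0.114) and not among macrophages (p = 0.0286). Non-overlap upward of the sums was found for 3.52%, 2.80% and 2.26% of all genes in the 3 cell types. Aldh18a1 and Pycr1 were higher without overlap in fibroblasts, at 31.2 to 44.7 against 22.3 to 28.9 CPM and at 5.07 to 8.08 against 3.25 to 4.93 CPM, with adjusted p of 0.271 and 0.193. Aldh18a1 did not overlap in macrophages either, at 14.0 to 31.4 CPM in Taz-KO against 7.59 to 13.3 CPM in WT mice (adjusted p = 0.200). In endothelial cells Aldh18a1 overlapped, with Taz-KO mouse 5301 at 6.48 CPM below every WT mouse, and Pycr1 overlapped there and in macrophages, where Taz-KO mouse 4685 had 0 UMIs, which allows up to 4.41 CPM (3 counts, unscaled). Pck2 was at 26.2 to 31.1 CPM in WT and 24.8 to 36.3 CPM in Taz-KO fibroblasts, with overlap.

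Outside cardiomyocytes, Got1 and Got2 were lowest in the same pair of mice, 1 of each genotype. Got1 was at 37.1 CPM in fibroblasts of Taz-KO mouse 5301 and 43.9 CPM in those of WT mouse 5356, against 114 to 228 CPM in the other 6 mice. Got2 was at 41.8 and 54.3 CPM in the same mice and 85.0 to 218 CPM in the others. Mice 5301 and 5356 also had the lowest shares of cardiomyocyte markers in fibroblasts, at 5.50% and 9.88%. The part of these shares in the levels was not tested.

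**Figure D3:**
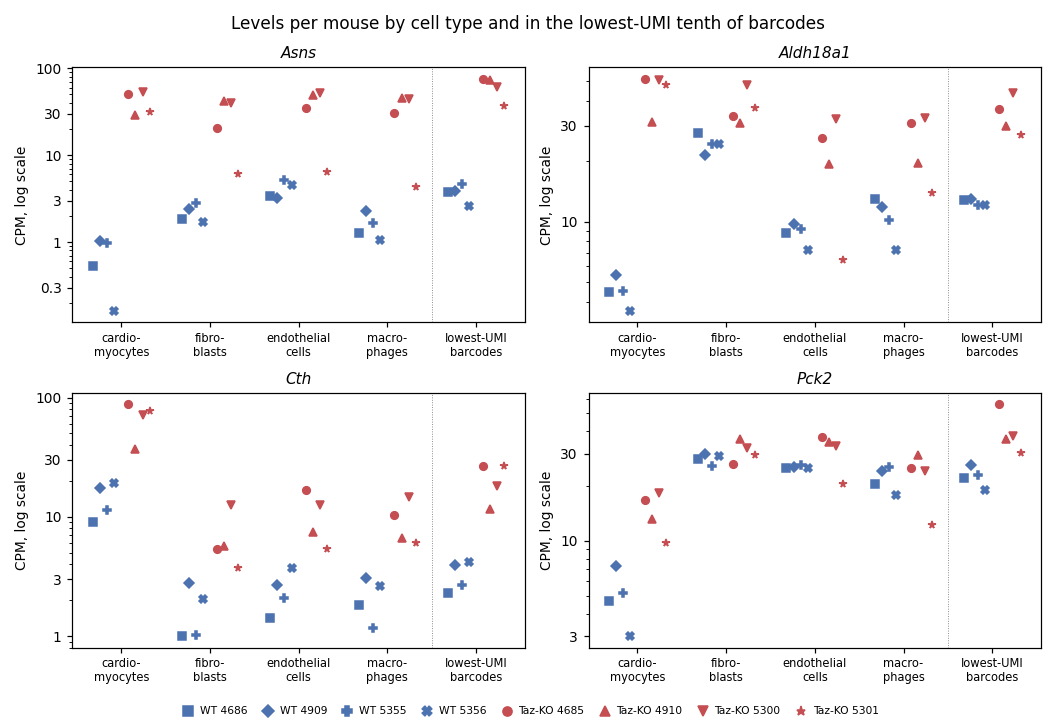
CPM (y axis, log scale, unscaled) of Asns, Aldh18a1, Cth and Pck2 per mouse in the 4 cell types and, right of the dotted line, in the 10% of barcodes with the fewest UMIs, 1 symbol per mouse, WT in blue and Taz-KO in red. In Asns the star of mouse 5301 stays near the other Taz-KO mice in cardiomyocytes and falls towards the WT mice in the other cell types, and in Pck2 the genotypes separate in cardiomyocytes and in the lowest-UMI barcodes.

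The size of the rise differed between cardiomyocytes and the other cell types for some members, as tested by the difference of the genotype effects with the mouse as a block (edgeR). Aldh18a1 had a larger log2 effect in cardiomyocytes by 2.68 ± 0.20 (SE; adjusted p = 7.78e-05) against fibroblasts, 1.80 ± 0.33 (adjusted p = 0.0205) against endothelial cells and 1.91 ± 0.28 (adjusted p = 0.00453) against macrophages. Pck2 did so by 1.37, 1.14 and 1.30 (adjusted p = 0.0153, 0.0221 and 0.0157). The effect on Pycr1 was larger by 2.08 against fibroblasts (adjusted p = 0.00235), and the differences of 0.82 against endothelial cells and 1.43 against macrophages did not pass (adjusted p = 0.356 and 0.0946).

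The effect on Asns was larger in cardiomyocytes by 2.58 against endothelial cells (adjusted p = 0.0440), while 2.24 against fibroblasts and 1.41 against macrophages did not pass (adjusted p = 0.0664 and 0.295). The effect on Cth differed by -0.09 ± 0.37, -0.14 ± 0.26 and -0.25 ± 0.34 (log2, SE), none past the test. In all, 3, 3 and 2 members had a larger effect in cardiomyocytes than in fibroblasts, endothelial cells and macrophages, against 2.49%, 1.21% and 1.37% of all genes, and none had a smaller one, which held for 1.23%, 0.954% and 0.832%. With the lowest-UMI profile subtracted these counts were 1, 0 and 0. The calls against endothelial cells were the least stable. That of Asns held without mouse 4910 or 5301 and was lost without any other mouse (adjusted p up to 0.120), that of Aldh18a1 was lost without 4686, 4909, 4910 or 5355 (up to 0.0776) and that of Pck2 without 4685, 4686, 5300 or 5355 (up to 0.0859), so that no member was left without 4686 or 5355. Against macrophages the call of Pck2 was lost without 5300 (adjusted p = 0.0682).

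**Figure D4:**
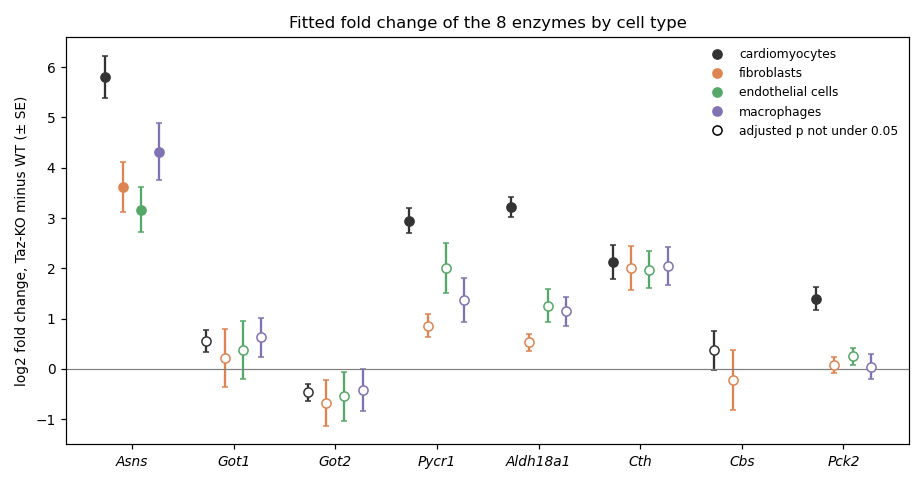
Fitted log2 fold change, Taz-KO minus WT (y axis, with the SE as bars), of the 8 enzymes in 4 cell types, filled where the adjusted p was under 0.05, Cbs shown in the 2 cell types where it was tested. Aldh18a1 and Pck2 are set apart in cardiomyocytes (3.22 and 1.4), Cth lies near 2 in all 4 cell types, and Got1 and Got2 lie on opposite sides of 0.

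The genes around these enzymes were read as 4 lists, beside the 8.62% of all genes tested that were called higher in cardiomyocytes and the 6.53% called lower, and a count near these shares is no result about a list. Of 17 neighbours of asparagine, aspartate and glutamate tested in cardiomyocytes, 2 were higher and 2 lower, with a median log2 fold change of -0.17. Gpt2, the mitochondrial alanine transaminase, rose from 26.1 ± 15.6 to 63.6 ± 10.0 CPM (SD, n = 4; log2 fold change 1.28, adjusted p = 0.0306) and the glutaminase Gls2 from 0.632 to 1.43 CPM (1.14, adjusted p = 0.0375). The cytosolic alanine transaminase Gpt fell from 8.93 ± 2.24 to 2.84 ± 0.780 CPM (-1.60, adjusted p = 0.00245) and Adssl1, a muscle enzyme of the purine nucleotide cycle, from 33.7 ± 1.04 to 20.1 ± 2.20 CPM (-0.74, adjusted p = 0.00403).

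Of 10 neighbours of proline and ornithine tested, Arg1, an arginase, was the 1 called, at 0.809 ± 0.356 CPM in WT and 1.90 ± 0.665 CPM in Taz-KO cardiomyocytes (log2 fold change 1.29, adjusted p = 0.0383), and the list's median was 0.26. Of 19 neighbours of methionine, homocysteine and cysteine, none was higher and 2 were lower, with a median of -0.18. Csad, which makes taurine's precursor from cysteine sulfinate, fell from 71.9 ± 12.6 to 43.5 ± 5.59 CPM (-0.72, adjusted p = 0.0146) and the sulfide oxidase Sqor from 13.9 ± 1.68 to 8.99 ± 1.92 CPM (-0.64, adjusted p = 0.0472).

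Of 14 neighbours of phosphoenolpyruvate and pyruvate, 1 was higher and 5 were lower, with a median of -0.56. The muscle enolase Eno3 fell from 154 ± 32.3 to 53.3 ± 5.87 CPM (log2 fold change -1.53, adjusted p = 0.000378) and the muscle fructose bisphosphatase Fbp2 from 11.4 ± 4.97 to 1.59 ± 0.665 CPM (-2.68, adjusted p = 0.00166). Me3, a mitochondrial malic enzyme, and Ldhb, the heart form of lactate dehydrogenase, had log2 fold changes of -0.94 and -0.69 (adjusted p = 0.0185 and 0.0201). Eno1, the widely expressed enolase, rose from 36.7 ± 4.76 to 60.8 ± 15.6 CPM (0.73, adjusted p = 0.0254).

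Of 8 stress transcription factors and regulators, 5 were higher in cardiomyocytes and none was lower, with a median log2 fold change of 1.57. Of all genes tested there, 8.62% were called higher and 6.53% lower. Trib3, a pseudokinase induced by and acting on ATF4, rose from 1.69 ± 0.725 to 84.2 ± 25.9 CPM (5.61, adjusted p = 4.47e-06) and Cebpg, a dimer partner of ATF4, from 20.3 ± 1.61 to 89.9 ± 15.9 CPM (2.14, adjusted p = 1.5e-05). Nupr1, Atf5 and Ddit3 were higher too, with log2 fold changes of 2.34, 1.88 and 1.26 (adjusted p = 0.00489, 0.00371 and 0.00410). Atf4 itself was at 36.7 ± 5.79 CPM in WT and 53.6 ± 17.9 CPM in Taz-KO cardiomyocytes (log2 fold change 0.55, adjusted p = 0.151), and Cebpb and Atf3 did not pass either (adjusted p = 0.396 and 0.587). Outside cardiomyocytes, 1 of these 8, Trib3, was called higher, by 1.75 (log2) in fibroblasts, 1.96 in endothelial cells and 2.72 among macrophages (adjusted p = 0.0418, 0.0120 and 0.00473), and none of the genes of the 4 neighbour lists was called. Of all genes, 0.282%, 0.312% and 0.305% were called higher in these cell types and 0.0847%, 0.112% and 0.0907% lower, so the absence of calls in the neighbour lists is no result about them.

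Over the 8 cardiomyocyte sums, the genes most like each called member were picked by Pearson's r of log2 CPM, among genes at a mean of 5 CPM or more. These r are a description, since the 8 points share the difference between genotypes. Asns was most like Psat1 (r = 0.996), Nars (0.993) and Phgdh (0.993), which are a serine synthesis enzyme, the asparaginyl-tRNA synthetase and the enzyme that opens serine synthesis. Aldh18a1 was most like the amino acid transporters Slc1a4 (0.998) and Slc7a5 (0.997) and the isoleucyl-tRNA synthetase Iars (0.996). Pycr1 was most like Rnps1 (0.994), Slc19a2 (0.991) and Gm41333 (0.991), Cth like Inpp5b (0.989), Arhgap1 (0.974) and the amino acid transporter Slc38a1 (0.970), and Pck2 like Arl8a (0.988), the mitochondrial protease Lonp1 (0.983) and Psat1 (0.981).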

How the data were processed

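Nuclei of 8 whole hearts were profiled with 10x Genomics libraries. The files the authors deposited give unnormalized UMI counts of genes in barcodes. They come from Cell Ranger 6.0.1 on mm10, intronic reads included, and precede the authors' correction for ambient RNA and doublets. Here, a barcode needed 800 UMIs and 250 genes, mitochondrial genes were left out, doublets were scored per mouse and the highest removed (0.8% per 1000 nuclei, at most 10%, 16231 barcodes), and 15 principal components of 2000 variable genes, members and listed genes excluded, were corrected for the mouse by the Harmony algorithm rewritten in numpy 2.4.6 and grouped by Leiden clustering (python-igraph 0.11.9). The 36 clusters were named by scores of 6 markers per type, a rule that was revised after the scores were seen, and 39926 nuclei stayed unnamed and were left out. Typed one by one, 10883 of the 29606 cardiomyocytes and 10888 of the 37159 fibroblasts got the same name. So did 11584 of the 18946 endothelial cells and 8516 of the 14636 macrophages. Most of the others got no name (16951, 22543, 6516 and 5076), and 2191 fibroblasts were typed as Schwann cells. Sums per mouse were compared in R 4.3.3 by the robust quasi-likelihood test of edgeR 4.0.16, after TMM scaling and filterByExpr, and DESeq2 1.42.0 was an alternative. Shares were compared by exact permutation tests, not adjusted over the members, in scipy 1.17.1. In tests on simulated data with 200 changed genes, 4-fold changes were recovered in 91.5% of cases in cardiomyocytes (18435 genes), 82.5% in fibroblasts (17720), 83.5% in the endothelial cells (16045) and 82.0% for macrophages (15430), and 2-fold changes in 23.0%, 2.0%, 8.0% and 1.0%. Each mouse is a separate animal, the labels give no batch that splits the libraries, and counting intervals were not needed for sums over mice. Members and lists were chosen with earlier results of these data known. Named are the 8 members, Taz, of each list the genes called in cardiomyocytes (at most 5 by adjusted p; Atf4, Cebpb and Atf3 were added after their values were seen), and the 3 genes most like each called member. Positions are from GENCODE vM21 and promoters from RefSeq, both on GRCm38. Alternatives were other size factors, DESeq2, no filter, leaving out mice, subtraction of the lowest-UMI profile with no negative counts allowed, typing nuclei one by one, keeping doublets, a mitochondrial limit and thinned sums. The authors' own annotation of nuclei was not used here.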

Additional observations from a re-analysis of the deposited data

Results flagged for a closer look

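Among 60 sets of 4 mice, 4 held a mouse whose gap to its nearest neighbour exceeded Dixon's 95% critical value, which chance alone gives in about 1 set in 20. In endothelial cells of Taz-KO mouse 5301, Got2 was at 34.6 CPM, against 142 to 160 CPM in the other Taz-KO mice. In macrophages of the same mouse, Got1 was at 84.1 CPM and Got2 at 44.7 CPM, against 238 to 251 CPM and 141 to 142 CPM in the others. Mouse 5301 also had the lowest share of mitochondrial UMIs and of cardiomyocyte markers outside cardiomyocytes, and the part of these in the low values was not tested. In cardiomyocytes of WT mouse 4686, Cbs was at 0.231 CPM, against 0.338 to 0.355 CPM in the other WT mice.

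Of 22 tests of a difference in effect between cardiomyocytes and another cell type, 8 passed. All 8 effects were larger in cardiomyocytes, which held for 2.49%, 1.21% and 1.37% of all genes against fibroblasts, endothelial cells and macrophages. Aldh18a1 had a larger effect in cardiomyocytes by 2.68 on the log2 scale against fibroblasts, 1.80 against endothelial cells and 1.91 against macrophages. Pck2 had one larger by 1.37, 1.14 and 1.30 against the same cell types. Pycr1 had one larger by 2.08 against fibroblasts, and Asns by 2.58 against endothelial cells. Most of these calls were lost when the lowest-UMI profile was subtracted. Against endothelial cells, the Asns call passed in 2 of 8 fits without 1 mouse, and those of Aldh18a1 and Pck2 in 4 of 8.

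In the 10% of barcodes of a library that held the fewest UMIs, which no comparison of cell types used as such, 5 members were higher in every Taz-KO than in every WT mouse, which held for 3.73% of the 18435 genes tested in cardiomyocytes. Asns was at 61.6 ± 17.6 CPM (SD, n = 4) in Taz-KO against 3.76 ± 0.858 CPM in WT mice. Aldh18a1 was at 34.2 ± 7.37 against 12.5 ± 0.462 CPM, Pck2 at 39.8 ± 11 against 22.5 ± 2.86 CPM, Cth at 20.8 ± 7.27 against 3.29 ± 0.926 CPM and Pycr1 at 6.74 ± 1.96 against 2.23 ± 0.288 CPM. These are the 5 members called in cardiomyocytes. Except in mice 4685 and 5301, these barcodes all had the UMIs required of a nucleus, so they are not free RNA by definition. Those kept and given a cell type are also part of the sums, so the match of the 5 members is no separate support.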

How the results depend on the processing

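The count of 5 members higher in cardiomyocytes was 5 or 6 without any 1 mouse and 5 under every other alternative but the subtraction of the lowest-UMI profile (4), and the count of members lower was 0 or 1 without any 1 mouse. In fibroblasts, endothelial cells and macrophages, where 1 member was higher, DESeq2 gave 3, 4 and 3 and the subtraction 0, 0 and 0. Thinned sums gave 0, 0 and 0, but Asns was not among the genes tested in them, so its call could not recur. Without any 1 mouse these counts ranged from 0 to 1, 0 to 3 and 0 to 3. Endothelial cells and macrophages both gave 2 with no filter and 2 without mice 4685 and 5301 together, and macrophages gave 3 with nuclei typed one by one. The counts of members with a larger effect in cardiomyocytes fell to 1, 0 and 0 under the subtraction, and ranged from 3 to 4, 0 to 3 and 1 to 3 without any 1 mouse. The share of Got1 nuclei differed by 12.6 percentage points at 2000 UMIs, past the test (exact permutation p = 0.0286), while the Cth shares of fibroblasts and endothelial cells no longer passed (p = 0.0571 and 0.114). Thinning to 2000 UMIs left out 347 of the 990 cardiomyocytes of Taz-KO mouse 5301 and 93 of WT mouse 5356. It also left out 10 of Taz-KO mouse 5300 and 4 of Taz-KO mouse 4685. The Pycr1 share of endothelial cells did not pass at 1000 UMIs (exact permutation p = 0.143) and passed at 2000 UMIs (p = 0.0286).

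Signs turned for small effects that were not called. Under the subtraction, Pck2 was at -0.098 (log2) in fibroblasts and -0.20 in macrophages, and the difference of the Cth effect was 0.47, 0.23 and 0.26 against fibroblasts, endothelial cells and macrophages. With thinned sums Pck2 in macrophages was at -0.089. Without any 1 mouse, Cbs ranged from -0.023 to 0.70 in cardiomyocytes and -0.54 to 0.19 in fibroblasts, Got1 from -0.084 to 0.52 and Pck2 from -0.025 to 0.15 in fibroblasts, Pck2 from -0.16 to 0.21 in macrophages, and the difference of the Cth effect from -0.39 to 0.16 against fibroblasts and -0.41 to 0.019 against macrophages. Of 85 values of the 5 called members in cardiomyocytes under alternatives, 84 kept their direction and call, at log2 fold changes of 5.50 to 8.31 for Asns and 2.96 to 4.12 for Aldh18a1. The causes were not tested.

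A limit of 5% mitochondrial UMIs was not run in fibroblasts, endothelial cells and macrophages, which kept too few nuclei, and in cardiomyocytes it was run without WT mouse 4909. In the thinned sums of the other 3 cell types Asns was not among the genes tested. No pairing of WT with Taz-KO mice was possible because the mice carry only their own numbers.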

Other observations

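In the smaller cell types, whose sums were not tested and held 10 to 24 nuclei of mouse 4685, Asns did not overlap between the genotypes in pericytes and lymphatic endothelial cells. In pericytes it was at 1.18 to 3.26 CPM (unscaled) in WT and 6.12 to 54.6 CPM in Taz-KO mice, and in lymphatic endothelial cells at 1.94 to 4.11 and 9.42 to 50.7 CPM. In mesothelial cells, at 1.95 to 7.10 and 6.72 to 41.6 CPM, and in adipocytes, at 3.91 to 8.36 and 5.57 to 40.3 CPM, mice of the genotypes overlapped. Each range in Taz-KO mice starts with mouse 5301, on 1 to 3 UMIs. In this mouse 3 counts correspond to 9.19 CPM in pericytes and 28.3 CPM in lymphatic endothelial cells. The share of all genes without overlap was not computed in these cell types, so the separation of Asns there is a description. Cth was at 4.18 to 15.6 CPM in WT and 14.7 to 28.8 CPM in Taz-KO adipocytes. Pck2 was higher in pericytes than in any of the other 7 named cell types in WT mice, at 40.3 to 54.9 CPM, and at 52.1 to 72.7 CPM in Taz-KO pericytes.

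After cardiomyocytes were thinned to 1000 UMIs, 5.84% to 10.3% of the nuclei of a Taz-KO mouse and 1.00% to 4.54% of those of a WT mouse held UMIs of 2 or more of the 8 enzymes. Nuclei with none of them made up 52.0% to 65.7% in Taz-KO and 64.1% to 80% in WT mice, with overlap between the genotypes. Neither share was tested, nor set against what the shares of the single enzymes would give.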
